A study of Mus musculus with 12 samples.

Results

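Cells were selected by markers of hepatic stellate cells from a single-cell RNA-seq survey of the neonatal mouse liver, and cells over set limits of endothelial, leukocyte, macrophage or hepatocyte RNA were taken out. A barcode was kept when it held 500 to 50000 unique molecular identifiers (UMIs, the count of distinct captured RNA molecules) and at most 20% mitochondrial UMIs. It was selected when Reln, Lrat, Colec11, Ecm1 and Dcn together had at least 4 UMIs with at least 2 of the 5 genes detected, when Stab2, Clec4g and Oit3 (sinusoidal endothelium) together had at most 1 UMI, when Ptprc, Cd79a and Cd3e (leukocytes) had 0, when C1qa, C1qb and C1qc (macrophages) together had at most 1, and when Alb, Apoa1, Apoa2 and Ttr (hepatocytes) made up less than 4% of its UMIs. Of 207537 barcodes 202557 were kept, 6408 passed the marker condition and 3171 passed every condition, which was 1.57% of the kept barcodes. The exclusions took out 3237 of the 6408, 2304 of them on endothelial genes, 1422 on C1q genes, 1393 on leukocyte genes and 184 on hepatocyte genes, with some removed on several grounds. At the marker limit, 84 selected cells had exactly 4 UMIs, and 106 barcodes that met the other conditions had 1 UMI less.

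The livers came from C57BL/6J pups on postnatal day 11, 6 with phlebotomy-induced anemia (PIA) and 6 naive controls, with 1 library per pup. In PIA pups 20 µL of blood per g of body weight was drawn from the facial vein on postnatal days 2, 4, 6, 8 and 10, with a hematocrit of 20 to 24% as the aim, and control pups received a needle stick without blood loss. Both groups were of the same inbred strain, with no transgene or deletion named, and the comparison holds repeated blood loss with everything that goes with it. The selected cells numbered 182, 196, 370, 324, 278 and 287 in controls 1 to 6 and 263, 96, 79, 373, 314 and 409 in anemic mice 1 to 6. The exclusions took out 2099 of 3736 barcodes that passed the marker condition in controls and 1138 of 2672 in anemic mice. Endothelial genes removed 1577 and 727 of these, C1q genes 879 and 543, leukocyte genes 842 and 551 and hepatocyte genes 153 and 31.

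Stellate cells lie in the space between hepatocytes and the sinusoidal endothelium. They store vitamin A as retinyl ester, which the enzyme encoded by Lrat makes, and they secrete matrix, growth factors such as Hgf and ligands of the BMP family. They are the main source of collagen when the liver scars, and in the fetal and neonatal liver, where blood cells are still made, they supply chemokines such as Cxcl12. Portal fibroblasts, which lie around the bile ducts and portal veins, and mesothelial cells of the liver surface share Dcn and many matrix genes with them.

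The selected cells did not all carry the defining markers of stellate cells. Reln, a secreted glycoprotein, was detected in 44.7% of them and Lrat in 33.6%, whereas Colec11, a secreted collectin, was detected in 58.7%, Ecm1, a matrix protein that holds TGF-beta latent, in 86.7%, and Dcn, a matrix proteoglycan, in 97.5%. All 5 were found together in 841 cells. A group of 1371 cells had at least 2 UMIs of Reln and Lrat together (called Reln/Lrat-positive here), 1635 had none (Reln/Lrat-negative) and 165 had 1. These groups were formed after the data had been examined, and how the rule genes and the other genes differed between them is a description without a test.

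Genes outside the rule separated the same cells. Hgf, the hepatocyte growth factor, was detected in 72.2% of Reln/Lrat-positive and 15.3% of Reln/Lrat-negative cells. Colec10, a collectin of the lectin complement pathway, was detected in 74.9% against 4.53%, and the BMP ligand Bmp10 in 28.4% against 0%. The stellate cell transcription factor Lhx2 stood at 40.9% against 3.12%. In the other direction, Gsn (gelsolin, an actin-severing protein) was found in 21.2% of Reln/Lrat-positive and 78.2% of Reln/Lrat-negative cells, and Cd34 and Clec3b, both used to mark fibroblasts of the portal tract, in 6.78% against 63.3% and 2.04% against 46.4%. The mesothelial genes Upk3b and Msln were detected in 20.5% and 16.8% of Reln/Lrat-negative cells and in 1.09% and 0.729% of Reln/Lrat-positive cells. Pdgfrb and Des, shared by liver mesenchyme in general, were near each other in both, at 35.5% and 34.3% against 30.7% and 29.8%. The cells were not thinned for these percentages, and the Reln/Lrat-negative cells were deeper. Their median UMIs ran from 5432 to 6125 in controls and 5319 to 6657.5 in anemic mice. In Reln/Lrat-positive cells they ran from 2981 to 3485 and from 3228.5 to 4542. A like percentage is thus not a like level, and depth raises detection in the negative cells. The name stellate cells is therefore borne out by these markers for the Reln/Lrat-positive part and not for the rest, and the whole set is called the selected cells below.

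**Figure D1:**
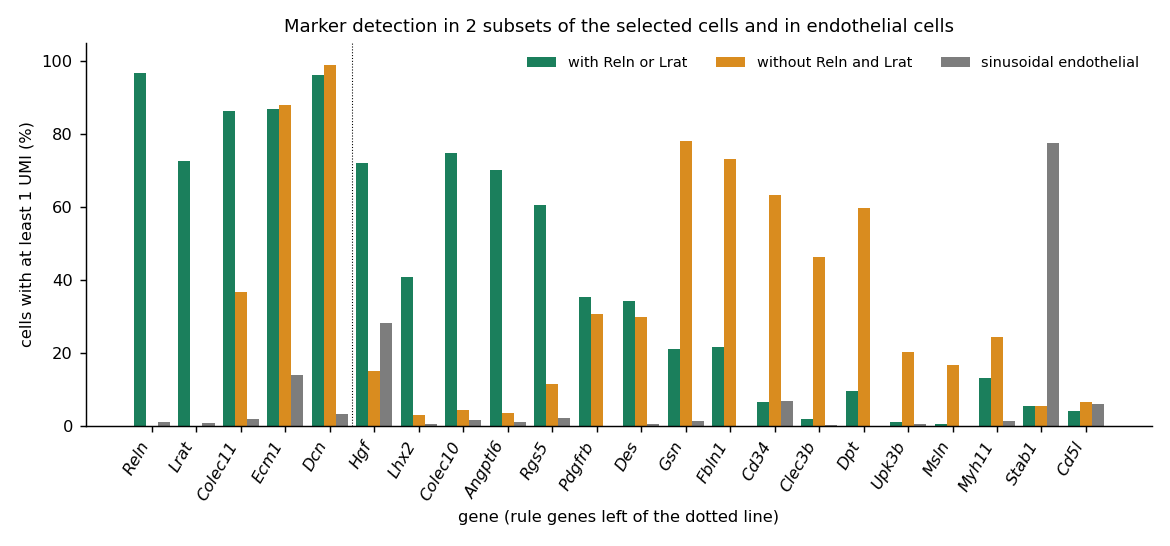
Percentage of cells with at least 1 UMI of each gene (vertical axis) for the 5 rule genes and for genes outside the rule (horizontal axis), in Reln/Lrat-positive cells, Reln/Lrat-negative cells and sinusoidal endothelial cells. Hgf reached 72.2% in the positive and 15.3% in the negative cells, and Gsn 21.2% and 78.2%. The cells were not thinned, and the negative cells held more UMIs than the positive cells.

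Library depth ran from 46252146 to 74545930 UMIs and did not sort the groups. The median selected cell held 3873 to 4225 UMIs in controls and 4859 to 5982 in anemic mice, without overlap. Within Reln/Lrat-positive cells the median of 5 of 6 anemic mice lay above every control, and within Reln/Lrat-negative cells the medians overlapped. Shares of cells with a gene list are given after thinning each cell to 1500 UMIs. Xist was high in the libraries of 4 controls and 2 anemic mice, which leaves more females among the controls. In the libraries without high Xist, 5 of 79 selected cells of anemic mouse 3, 13 of 314 of anemic mouse 5 and 7 of 409 of anemic mouse 6 held Xist, and none did in anemic mouse 1 and controls 1 and 2. A barcode was found in more than 1 library for 4791 of 197684 kept barcodes, and for 1 of 3170 barcodes of selected cells. More than 10% hemoglobin UMIs occurred in 10 control and 59 anemic selected cells. Endothelial cells made up 8.23 to 11.5% of kept barcodes in controls and 1.63 to 7.40% in anemic mice, without overlap.

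The question asked first was whether PIA changed how many of these cells were recovered. The selected cells made up 1.74% ± 0.584 (SD, n = 6) of kept barcodes in controls and 1.5% ± 0.880 (SD, n = 6) in anemic mice (exact two-sided permutation test over the mice, p = 0.587). The lowest, median and highest mice stood at 1.10, 1.67 and 2.65% and at 0.376, 1.70 and 2.65%. The anemic mice had the wider spread, with mice 2 and 3 below every control, and the ranges overlapped. These shares depend on how many blood cells each library caught. Without barcodes of more than 10% hemoglobin in the denominator the difference turned, from -0.237 to 0.0935 percentage points, and without anemic mice 2 and 3 it was 0.282. After thinning to 1500 UMIs it was -0.756, so no direction is given.

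The make-up of the selected cells was not the same in the 2 groups. Reln/Lrat-positive cells were 44.9, 55.6 and 66.4% of the selected cells in the lowest, median and highest control and 13.9, 28.5 and 37.6% in the anemic mice. The highest anemic mouse lay under the lowest control. After thinning, the values were 36.9 to 59.4% and 5.26 to 27.1%. Since Reln and Lrat belong to the selection rule, these shares carry no test. Against all kept barcodes, Reln/Lrat-positive cells went from 0.965% ± 0.349 (SD, n = 6) to 0.449% ± 0.281 (SD, n = 6), and Reln/Lrat-negative cells from 0.699% ± 0.314 to 0.956% ± 0.561. A cell in which Reln and Lrat RNA had fallen below detection would move from one group to the other, and fewer cells and less RNA per cell cannot be told apart here. Within Reln/Lrat-negative cells, Colec10 was detected in 4.12% of control and 4.80% of anemic cells, and Angptl6, an angiopoietin-like factor, in 3.81% and 3.58%. These genes are examples only. Of 24 stellate cell markers outside the rule tested there, 15 had a log2 fold change above 0, with a median of 0.09 (all genes -0.01). None of the 24 was called, where 0.0777% of all genes were. Whether cells moved from one group to the other was not tested.

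Shares by genes outside the rule were tested, but their denominator is the selected cells, which the rule chose by Reln and Lrat among others. A lower Reln/Lrat-positive share raises the share of the rest, so the portal fibroblast test below is not separate from that split. Cells with at least 2 of the 12 portal fibroblast genes made up 56.2% ± 7.27 (SD, n = 6) of the thinned selected cells in controls and 76.6% ± 7.27 (SD, n = 6) in anemic mice, with the 6 anemic values, 69.1 to 88.2%, above the 6 control values, 47.0 to 65.4% (exact permutation p = 0.00216, Benjamini-Hochberg adjusted over the 4 shares 0.00866). Leaving out any one mouse kept the difference at 18.1 to 22.2 percentage points. The corresponding share was 94.0% in Reln/Lrat-negative and 27% in Reln/Lrat-positive cells, and within Reln/Lrat-positive cells its mean over mice was 23.1% in controls and 36.5% in anemic mice, the latter with 62.5% in mouse 3, where only 8 cells could be thinned. The shares with at least 2 genes of the cell cycle (11.1% ± 2.55 against 8.61% ± 2.45), of mural cells (33.4% ± 3.66 against 33.2% ± 5.80) and of mesothelium (10.1% ± 5.48 against 15.7% ± 5.43) overlapped between the groups and missed the threshold, with adjusted exact permutation p of 0.167, 0.939 and 0.167. Without control mouse 2, which had the highest control value, the mesothelial difference was 7.52 percentage points with an adjusted p of 0.00866 by the same exact test. This was the only single omission that changed the outcome. Over all of them the difference ran from 3.51 to 7.52 points and the adjusted p from 0.00866 to 0.312.

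**Figure D2:**
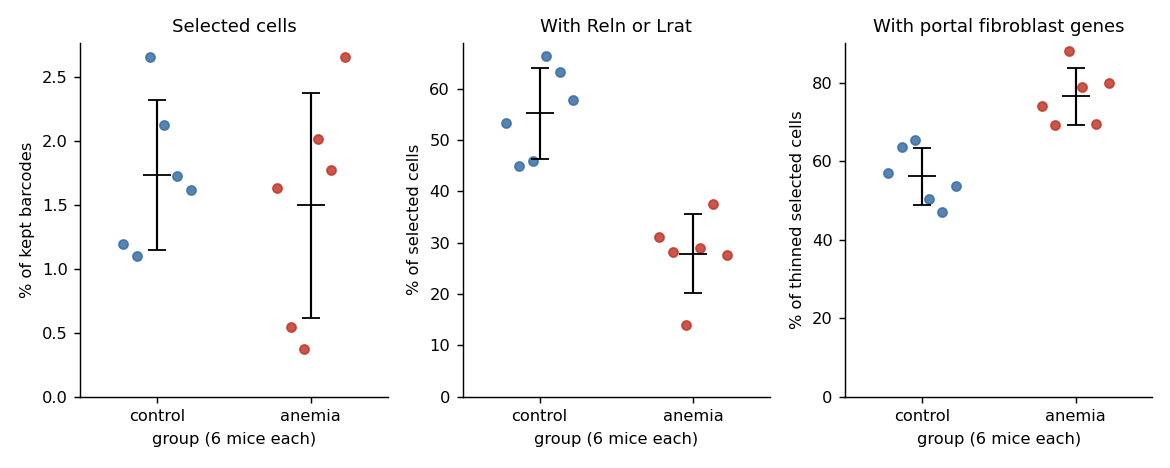
Shares of the selected cells by mouse (1 point per mouse, 6 controls and 6 anemic mice, with the group mean and SD), in percent on the vertical axes. The total share overlapped between the groups, the Reln/Lrat-positive share lay at 44.9 to 66.4% in controls and 13.9 to 37.6% in anemic mice, and the portal fibroblast share was higher in every anemic mouse than in every control.

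To compare expression, UMIs were summed per mouse over the selected cells, and levels of tested genes are given as CPM, UMIs per 1000000 UMIs of the tested genes, after trimmed-mean (TMM) scaling. Summed levels of a list are per 1000000 of all UMIs without TMM scaling, so they are not on the scale of the single genes. Across all selected cells, 592 of 12840 genes tested (4.61%) differed between anemic and control mice at an adjusted p under 0.05, 262 higher and 330 lower. Of the 27 further stellate cell markers, 17 were lower and 1 was higher in the anemic mice, with a median log2 fold change of -1.02 beside -0.01 for all genes (2.57% of all genes tested were lower and 2.04% higher). Gdf2 (BMP9) read 92.7, 119 and 166 CPM in the lowest, median and highest control and 7.03, 55.1 and 67.8 CPM in the anemic mice, a log2 difference of -1.26 ± 0.24 (adjusted p = 0.0113). Hgf, with 183, 360.4 and 546 CPM and 44.5, 168 and 226 CPM, did not pass (-1.13 ± 0.36 (adjusted p = 0.117)). The share of Reln/Lrat-positive cells, given above, was lower in the anemic mice too, and its part in this contrast was not tested. Inside the Reln/Lrat-positive cells 6 of the 27 were lower and 1 was higher (1.07% and 1.43% of all genes tested there). Inside the Reln/Lrat-negative cells none of 24 tested was called, where 0.0777% of all genes were. Gdf2, for example, was -0.40 ± 0.21 (adjusted p = 0.440) inside the Reln/Lrat-positive cells. With a covariate for Y-linked expression, which stands for sex, the count over all selected cells was 350 instead of 592.

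Red cell genes led the rises over all selected cells, where 2.04% of all genes tested were higher and 2.57% lower. Of the 9 erythroid genes tested 8 were higher, with a median of 2.52, and 2 of 7, with a median of 1.07, under stricter exclusion (no endothelial or C1q UMI, under 2% hepatocyte and 1% hemoglobin UMIs in each cell). The hemoglobin limit acts on globin genes of this list, so the lower count and median were in part set by the filter and are no separate result. Alas2, which begins heme synthesis in red cell precursors, read 4.79, 13.8 and 20.1 CPM in controls and 56.2, 66.3 and 89.4 CPM in anemic mice, a log2 difference of 2.52 ± 0.24 (adjusted p = 1.30e-05), and Hbb-bs, an adult beta globin, rose by 2.42 ± 0.39 (adjusted p = 0.00583). The 2 groups did not overlap for either, as for 371 of the 12840 genes (2.89%). The Alas2 call was lost under stricter exclusion. The summed level of the list was 772 to 3735 CPM in controls and 10957 to 19738 CPM in anemic mice, and each of its 11 genes had UMIs, so the part of red cell RNA from outside the selected cells in these rises was not tested. The rise was not particular to these cells. In endothelial cells the sum was 1877 to 7039 CPM in controls and 6957 to 16452 CPM in anemic mice. In C1q macrophages it was 1410 to 9112 and 5014 to 19999 CPM. The response differed for 0 of 10 erythroid genes against endothelial cells and 0 of 9 against macrophages, beside 6.63% and 1.29% of all genes. Hepatocyte RNA had a summed level of 1993 to 3641 CPM and 518 to 2166 CPM, 2 of 19 genes lower (Cyp2e1 and Gc) and 2 higher (Apoc3 at 1.47 ± 0.36 (adjusted p = 0.0388) and Serpina3k). Serpina3k, with 6 UMIs over the controls and 69 over the anemic mice, reached the filter of 5 UMIs a mouse through the anemic mice alone. The Apoc3 call was lost in 9 of the 12 single omissions and that of Gc in 3.

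Inside the Reln/Lrat-positive cells 234 of 9370 genes tested (2.5%) differed, 134 higher (1.43%) and 100 lower (1.07%), and 139 of them were also called over all selected cells, which is 59.4% of the 234 and 23.5% of the 592. The count was 123 without anemic mouse 5, 144 without control 5, 148 with the Y-linked covariate and 314 without anemic mice 2 and 3, which held 27 and 11 such cells. The 6 anemic and 6 control values did not overlap for 177 genes (1.89%), called or not. Cells are in this set by their Reln and Lrat UMIs, and the set was a smaller share of the selected cells in the anemic mice. The part of this sorting in the calls was not tested. The values that follow are from the Reln/Lrat-positive cells unless another set is named.

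Of the 21 stellate cell transcription factors tested, 3 were lower and 2 higher in the anemic mice (1.07% and 1.43% of all genes tested). Tcf21 (GRCm38 chr10:22817281-22820174 on the minus strand), a basic helix-loop-helix factor of mesenchyme, read 949, 1143 and 1578 CPM in the lowest, median and highest control and 367, 567 and 642 CPM in the anemic mice. All 6 anemic mice lay under the lowest control, and the log2 difference was -1.14 ± 0.15 (adjusted p = 4.51e-05). Lhx2 (GRCm38 chr2:38339281-38369733 on the plus strand), a LIM homeobox factor whose loss in mice brings on liver fibrosis, read 179.6, 238 and 251 CPM and 34.7, 119 and 152 CPM, again without overlap, and fell by 0.92 ± 0.16 (adjusted p = 0.00140). Zeb2 fell by 0.57 ± 0.14 (adjusted p = 0.0160), whereas its relative Zeb1 rose by 0.61 ± 0.14 (adjusted p = 0.0120) and Mef2c, a MADS-box factor tied to stellate cell activation, by 0.62 ± 0.17 (adjusted p = 0.0430). The other 16 did not pass, Hand2 (-0.16 ± 0.15 (adjusted p = 0.733)) and Gata4 (-0.33 ± 0.15 (adjusted p = 0.332)) among them. The Tcf21, Lhx2 and Zeb1 calls held under every alternative that was run, whereas Zeb2 missed the threshold without anemic mouse 5 (adjusted p = 0.0589), without control 5 (0.0574), with the Y-linked covariate (0.0504) and under stricter exclusion (0.0744), and the Mef2c call was lost in 7 of the 12 single omissions (adjusted p up to 0.256).

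Genes of retinoid handling moved in both directions. Rarb, a retinoic acid receptor that retinoic acid itself induces, read 338, 430.3 and 502 CPM in controls and 104, 202 and 280 CPM in anemic mice and fell by 1.04 ± 0.17 (adjusted p = 9.49e-04) without overlap. Aldh1a1, which makes retinoic acid from retinal, read 54.0, 63.2 and 93.3 CPM and 111, 129 and 312 CPM and rose by 1.02 ± 0.20 (adjusted p = 0.00259), with every anemic mouse above every control. The other 12 of the 14 retinoid genes tested did not pass, where 2.5% of all genes tested did. Lrat, a rule gene and so given without a test, had a mean of 651 ± 100.1 CPM without TMM scaling in controls and 375 ± 109.7 in anemic mice (SD, n = 6 each), and Reln 3206 ± 267 and 1912 ± 779.

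Of the 34 secreted signals tested 3 were lower and 0 higher (1.07% and 1.43% of all genes tested). When single mice were left out 1 to 5 were lower and 0 to 2 higher. Under stricter exclusion 5 of 31 were lower and 2 higher, and without anemic mice 2 and 3 the counts were 6 and 2 of 34. Igfbp3 (GRCm38 chr11:7206086-7213923 on the minus strand), which binds insulin-like growth factors, read 1057, 1318 and 1489 CPM in controls and 288, 697 and 764 CPM in anemic mice, a log2 difference of -1.12 ± 0.18 (adjusted p = 0.00122) without overlap. Cxcl12, the chemokine that holds blood stem cells and B cell precursors in their niche, read 3084, 3862 and 4577 CPM and 1041, 2122 and 3274 CPM and fell by 0.79 ± 0.19 (adjusted p = 0.0201), with 5 of 6 anemic mice under every control. Bmp10, a ligand for the endothelial receptor ALK1, read 119, 128 and 180 CPM and 34.7, 78.9 and 103 CPM and fell by 0.71 ± 0.17 (adjusted p = 0.0188). Without anemic mouse 5 the Cxcl12 and Bmp10 calls missed the threshold (adjusted p = 0.0616 and 0.0690), and Cxcl12 did so too without anemic mouse 2 (0.0554), without control 3 (0.0569) and with the Y-linked covariate (0.0510), and Bmp10 without anemic mouse 4 (0.0649), without control 2 (0.0500) and under stricter exclusion (0.115). The related BMP ligands Gdf2 (-0.40 ± 0.21 (adjusted p = 0.440)) and Bmp5 (-0.47 ± 0.17 (adjusted p = 0.162)) did not pass, nor did Hgf (-0.45 ± 0.33 (adjusted p = 0.651)) or Kitl, the ligand of the Kit receptor (0.10 ± 0.19 (adjusted p = 0.916)). Epo, the red cell hormone, gave 13 UMIs over the 6 controls and 8 over the 6 anemic mice and was too sparse to test.

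Genes of other kinds were lower as well, where 1.07% of all genes tested in these cells were lower and 1.43% higher. Bambi, a pseudoreceptor that dampens TGF-beta signaling, read 249, 339 and 418 CPM and 104, 191 and 229.9 CPM and fell by 0.77 ± 0.15 (adjusted p = 0.00321), the single call among the 33 TGF-beta and BMP genes tested. Slc40a1 (ferroportin), the exporter of iron from cells, read 264, 299 and 324 CPM in controls and 90.7, 160.4 and 201 CPM in anemic mice and fell by 0.86 ± 0.15 (adjusted p = 0.00122) without overlap. Macrophages express it as well. The summed macrophage RNA in these cells, on the scale of all UMIs, was 505 to 625 CPM in controls and 366 to 537 CPM in anemic mice. Slc40a1 itself is on that list, and the part of macrophage RNA in the fall was not tested. Of the 7 macrophage genes tested 2 were lower, Slc40a1 and Fcna, a ficolin of Kupffer cells, at -1.05 ± 0.26 (adjusted p = 0.0245), a call lost in 4 of the 12 single omissions. Tafa1, a secreted peptide related to chemokines, showed 169, 228 and 349 CPM and 0, 47.4 and 72.1 CPM, a log2 difference of -2.11 ± 0.24 (adjusted p = 4.51e-05). Lrrn3, a leucine-rich repeat membrane protein, fell by 1.60 ± 0.29 (adjusted p = 0.00181), Ngfr, the low-affinity neurotrophin receptor, by 0.95 ± 0.24 (adjusted p = 0.0324), and Cnn3, an actin-binding calponin, by 0.55 ± 0.13 (adjusted p = 0.0147), the single call among 20 contractile genes tested. With the Y-linked covariate Ngfr (0.106) and Cnn3 (0.0626) missed the threshold, as they did under stricter exclusion (0.0986 and 0.0611), and the Ngfr call was lost in 6 of the 12 single omissions (adjusted p up to 0.114).

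**Figure D3:**
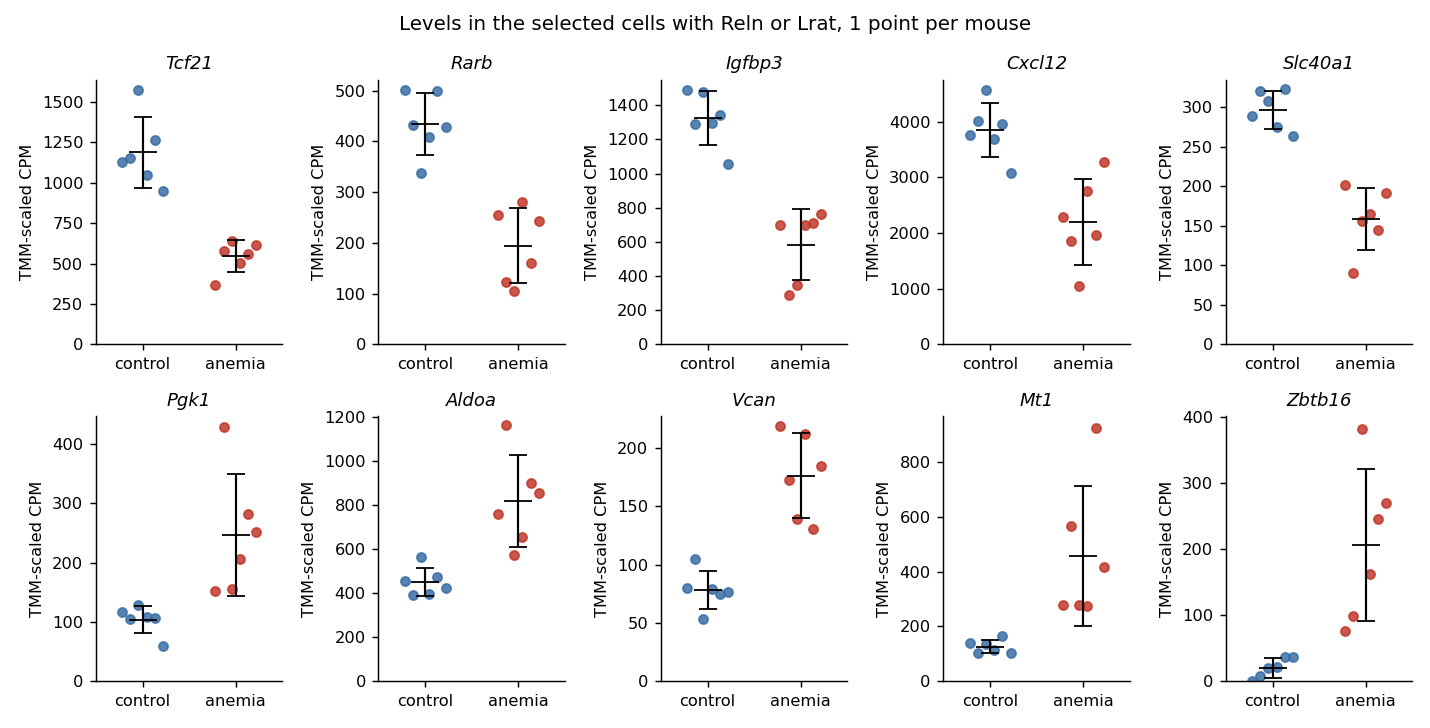
Levels of 10 genes in the Reln/Lrat-positive cells, in TMM-scaled CPM (vertical axes), with 1 point per mouse and the mean and SD of the 6 controls and 6 anemic mice. Tcf21, Rarb, Igfbp3 and Slc40a1 were lower and Pgk1, Aldoa, Vcan, Mt1 and Zbtb16 higher in every anemic mouse than in every control, and Cxcl12 overlapped by 1 mouse.

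Cells short of oxygen stabilise the HIF factors, which bind the DNA letters ACGTG in front of their target genes and switch on glycolysis, glucose and lactate transport and mitochondrial turnover. In the Reln/Lrat-positive cells 15 of 35 hypoxia and glycolysis genes tested were higher and 0 lower (1.43% of all genes tested were higher), with a median log2 fold change of 0.70. When single mice were left out 9 to 18 of them were higher, and with the Y-linked covariate 10 of 35. Over all selected cells 6 of 38 were higher and 1, Adm, was lower, with a median of 0.37 (2.04% of all genes tested there were higher and 2.57% lower). Pgk1 (phosphoglycerate kinase, GRCm38 chrX:106187100-106203699 on the plus strand) read 59.3, 107 and 129 CPM in controls and 152, 229 and 429 CPM in anemic mice, a log2 difference of 1.26 ± 0.22 (adjusted p = 0.00252), and Eno1 (enolase) read 146, 170.2 and 232 CPM and 260.3, 364 and 469.8 CPM, a difference of 1.12 ± 0.15 (adjusted p = 4.51e-05). Neither overlapped between the groups, and the same held for Gapdh (0.99 ± 0.17 (adjusted p = 0.00143)), Aldoa (0.87 ± 0.15 (adjusted p = 0.00122)) and Tpi1 (1.03 ± 0.16 (adjusted p = 2.96e-04)), all enzymes of glycolysis. Bnip3, which marks mitochondria for removal, read 24.2, 33.2 and 45.4 CPM and 34.7, 73.1 and 93.3 CPM and rose by 1.2 ± 0.22 (adjusted p = 0.00169). Slc16a3, the exporter of lactate, rose by 1.46 ± 0.35 (adjusted p = 0.0161), though the lowest anemic mouse had 0 UMIs, and Pdk1, which keeps pyruvate out of mitochondria, by 1.36 ± 0.36 (adjusted p = 0.0374). The remaining calls were Hk2, Gpi1, Ldha, Pgam1, Mif, Fam162a and Plod2, at 0.57 to 1.10. The calls of Pgk1, Eno1, Gapdh, Aldoa, Tpi1, Bnip3, Fam162a, Mif and Plod2 held under every alternative in which they were tested. When single mice were left out, the call was lost in 9 of the 12 fits for Hk2 and for Ldha, in 8 for Pdk1, in 7 for Gpi1, in 3 for Slc16a3 and in 1, without anemic mouse 5, for Pgam1, with adjusted p up to 0.165 (Pdk1 without anemic mouse 6).

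Among the genes of the same list that did not pass in these cells were Vegfa, Slc2a1 and Adm, of which Slc2a1 (0.67 ± 0.17 (adjusted p = 0.0257)) and Adm (-0.84 ± 0.18 (adjusted p = 0.00894)) were called over all selected cells, the former losing its call in 4 of the 12 single omissions. Vegfa, the main vessel growth factor, read 48.6, 66.5 and 86.9 CPM in controls and 34.7, 106 and 152 CPM in anemic mice, a difference of 0.69 ± 0.20 (adjusted p = 0.0546). Slc2a1, the glucose transporter GLUT1, read 10.8, 16.3 and 20.3 CPM and 8.94, 26.1 and 43.7 CPM (0.75 ± 0.32 (adjusted p = 0.292)). Adm (adrenomedullin), a vessel-widening peptide, lay at 103, 119.6 and 164 CPM and 51.5, 70.0 and 198 CPM (-0.64 ± 0.24 (adjusted p = 0.197)), with 20 genes of the list in all without a call.

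To show what lies in front of these genes, the 250 bases before the annotated start are printed for 3 called genes that hold the ACGTG letters and for Mif, a called gene that does not (RefSeq, build GRCm38.p6, written 5′ to 3′ on the gene's strand, with ACGTG or its reverse complement CACGT in capitals).
Pgk1 (chrX:106186850-106187099, plus strand): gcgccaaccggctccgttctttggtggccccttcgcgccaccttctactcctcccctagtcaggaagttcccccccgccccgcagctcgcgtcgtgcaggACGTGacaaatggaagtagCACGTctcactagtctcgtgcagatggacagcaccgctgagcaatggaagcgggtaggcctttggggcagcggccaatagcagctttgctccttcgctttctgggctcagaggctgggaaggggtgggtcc
Bnip3 (chr7:138909507-138909756, minus strand): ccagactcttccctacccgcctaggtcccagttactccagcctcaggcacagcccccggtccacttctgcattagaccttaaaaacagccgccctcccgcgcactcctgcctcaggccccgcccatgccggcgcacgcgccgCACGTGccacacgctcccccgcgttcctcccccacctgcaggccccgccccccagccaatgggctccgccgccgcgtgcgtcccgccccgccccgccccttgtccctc
Hk2 (chr6:82774455-82774704, minus strand): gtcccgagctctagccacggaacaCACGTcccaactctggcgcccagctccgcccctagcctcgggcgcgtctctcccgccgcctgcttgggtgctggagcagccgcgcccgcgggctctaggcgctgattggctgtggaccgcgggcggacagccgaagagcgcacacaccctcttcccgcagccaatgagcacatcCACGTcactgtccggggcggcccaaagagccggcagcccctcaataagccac
Mif (chr10:75860278-75860527, minus strand): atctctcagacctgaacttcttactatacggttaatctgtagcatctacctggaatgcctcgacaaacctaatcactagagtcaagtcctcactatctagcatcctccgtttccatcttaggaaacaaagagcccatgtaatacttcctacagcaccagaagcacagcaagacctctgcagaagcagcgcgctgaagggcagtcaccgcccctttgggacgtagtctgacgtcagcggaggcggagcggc
Such a match was present for 8 of the 14 called genes of the list that had a window, for 10 of the 16 tested genes of the list without a call, for 25.6% of the 7429 tested genes with a window and for 16.6% of all 32851 windows of that length. Searching both strands, CACGTG counted on either. A match is a match of letters and does not show binding.

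**Figure D4:**
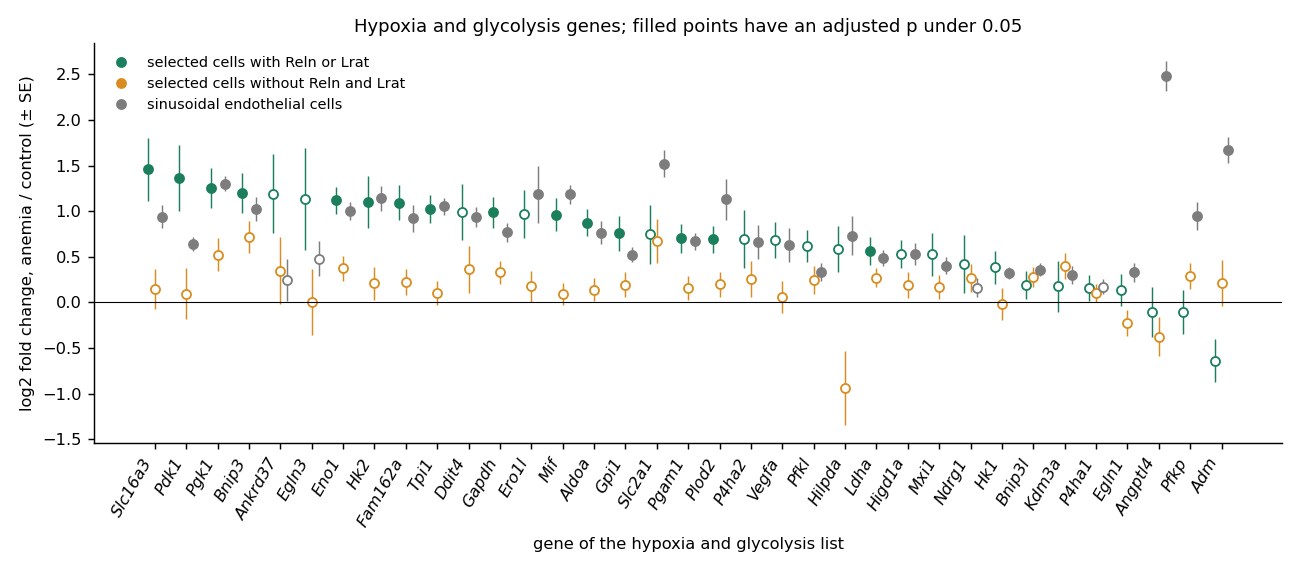
Log2 fold change, anemic over control, with its standard error (vertical axis) for each hypoxia and glycolysis gene (horizontal axis) in Reln/Lrat-positive and Reln/Lrat-negative cells and in sinusoidal endothelial cells, with filled points at an adjusted p under 0.05. Of the genes tested, 15 of 35, 0 of 37 and 31 of 37 were higher, beside 1.43%, 0.0777% and 6.69% of all genes tested in each set.

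Matrix genes rose in part. Of 18 collagen genes tested 5 were higher and 1 lower, and of 52 other matrix genes 6 were higher and 1 lower, with medians of 0.39 and 0.20. Of all genes tested in these cells 1.43% were higher and 1.07% lower. Vcan (versican, a large proteoglycan of provisional matrix, GRCm38 chr13:89655312-89742509 on the minus strand) read 52.9, 77.8 and 104 CPM in controls and 131, 179 and 219 CPM in anemic mice, a log2 difference of 1.23 ± 0.17 (adjusted p = 6.19e-05), with every anemic mouse above every control. Col6a1 and Col6a2, chains of the beaded-filament collagen VI, rose by 0.85 ± 0.13 (adjusted p = 4.41e-04) and 0.81 ± 0.16 (adjusted p = 0.00259). The fibril collagen Col1a1 read 2559, 2907 and 4337 CPM and 3800.3, 4825 and 8157 CPM and rose by 0.69 ± 0.18 (adjusted p = 0.0332), while Col3a1 (0.18 ± 0.14 (adjusted p = 0.632)) and Col1a2 (0.43 ± 0.16 (adjusted p = 0.168)) did not pass. Col12a1 and Col15a1, fibril- and basement-membrane-associated collagens, rose by 1.38 ± 0.25 (adjusted p = 0.00191) and 1.31 ± 0.32 (adjusted p = 0.0218), and the laminin chain Lama4 by 1.80 ± 0.30 (adjusted p = 0.00259). Lox and Loxl2, which crosslink collagen, rose by 0.87 ± 0.20 and 0.60 ± 0.14 and Plod2, a lysyl hydroxylase, by 0.69 ± 0.15, at adjusted p of 0.0133, 0.0132 and 0.00739. Plod2 stands on the hypoxia list too and is counted in both. Adamtsl2, which modulates fibrillin and TGF-beta, rose by 1.85 ± 0.33 (adjusted p = 0.00913). When single mice were left out, the call was lost in 7 of the 12 fits for Col1a1 (adjusted p up to 0.0973), in 5 for Col15a1 (up to 0.122) and, without anemic mouse 5, in 1 each for Lox (0.0575) and Loxl2 (0.0589). These 4 also missed the threshold with the Y-linked covariate (0.0958, 0.0547, 0.0547 and 0.0540), and Col15a1 under stricter exclusion (0.0835).

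Lower matrix genes were Col25a1, a membrane collagen, with 142, 179 and 192 CPM in controls and 17.4, 60.5 and 125 CPM in anemic mice (-1.26 ± 0.20 (adjusted p = 5.82e-04)), and Tgfbi, a cell-adhesion matrix protein that TGF-beta induces, with 2005, 2265 and 3109 CPM and 538, 1221 and 1623 CPM (-0.95 ± 0.18 (adjusted p = 0.00432)). Both were free of overlap. The summed portal fibroblast genes in the same cells lay at 2099.9 to 3710.2 CPM in controls and 1080.3 to 9504 CPM in anemic mice, the highest in mouse 3 with its 11 cells, and 1 of the 10 genes tested (Col15a1) was called. Fibroblasts carry the collagens too, and the part of these genes in the rise was not tested. Of all genes tested in these cells 2.5% were called. Without anemic mice 2 and 3, 4 collagens and 6 other matrix genes were higher. Neither the 20 contractile genes (1 lower) nor the 5 PDGF genes (0 called) included a rise. Acta2, the smooth muscle actin of activated stellate cells, ranged widely, at 867, 1491 and 2386 CPM and 1322, 2447 and 7549 CPM (0.99 ± 0.46 (adjusted p = 0.382)).

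Zbtb16 had the largest rise among called genes without overlap. It lies at GRCm38 chr9:48654297-48836222 on the minus strand and encodes a zinc finger repressor that glucocorticoids induce. Its level was 0, 19.7 and 36.3 CPM in controls and 76.0, 204 and 382 CPM in anemic mice, a log2 difference of 3.13 ± 0.48 (adjusted p = 0.00604). Of the 12 glucocorticoid response genes tested 3 were higher and 0 lower (1.43% and 1.07% of all genes tested). The others were Klf9, a Kruppel-like factor, at 0.59 ± 0.15 (adjusted p = 0.0235) and Fkbp5, a chaperone partner of the receptor, at 1.00 ± 0.28 (adjusted p = 0.0477), and their calls were lost in 5 and 9 of the 12 single omissions (adjusted p up to 0.0801 and 0.214) and with the Y-linked covariate (0.111 and 0.0829) and under stricter exclusion (0.0531 and 0.264). Hsd11b1, which turns inactive glucocorticoid into the active hormone, read 14.4, 27.8 and 40.7 CPM and 67.1, 97.8 and 121 CPM, a difference of 1.67 ± 0.22 (adjusted p = 5.05e-05). Gpx3, a secreted selenium peroxidase, gave 16 UMIs over the controls and 73 over the anemic mice, with 0, 4.63 and 10.2 CPM and 17.9, 38.7 and 69.5 CPM. It reached the filter of 5 UMIs a mouse through the anemic mice alone, so no fold is given.

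Metallothioneins, small proteins that bind zinc and copper, were higher. Mt1 read 101, 124 and 164 CPM in controls and 276, 347 and 927 CPM in anemic mice, a log2 difference of 1.91 ± 0.33 (adjusted p = 0.0110), and Mt2 rose by 1.71 ± 0.38 (adjusted p = 0.0147), which was 0.0808 without anemic mouse 5 and 0.157 under stricter exclusion. Together with the fall of Slc40a1 these were the calls among 13 metal-handling genes tested. Of all genes tested, for this list and the next, 1.43% were higher and 1.07% lower. Of the 17 genes of the chemokine and cytokine list that were tested 2 were higher and 1, Cxcl12, was lower, with a median of 0.06. Osmr, the oncostatin M receptor, read 29.4, 46.2 and 68.4 CPM and 87.3, 115 and 313 CPM, a difference of 1.82 ± 0.35 (adjusted p = 0.0139) without overlap, and Il1r1, the receptor for interleukin-1, read 129.6, 136 and 185 CPM and 156, 278 and 363 CPM, a difference of 0.89 ± 0.15 (adjusted p = 0.00122). These were the 2 rises of that list. Colec12, a scavenger receptor, was the single call of 14 complement genes at 0.86 ± 0.24 (adjusted p = 0.0435), a call lost in 8 of the 12 single omissions (adjusted p up to 0.156). Adamts4, a protease that cuts versican and aggrecan, rose by 1.96 ± 0.29 (adjusted p = 0.00135), and Podn, a small leucine-rich proteoglycan, by 1.48 ± 0.31 (adjusted p = 0.00912), which was 0.0727 under stricter exclusion.

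Several lists gave no call in the Reln/Lrat-positive cells, with edgeR's quasi-likelihood test over all 9370 genes, of which 1265 had an unadjusted p under 0.05. These were the 24 cell cycle genes (median 0.08), the 22 stress and immediate early genes (0.17), the 23 interferon genes (0.08), the 9 cholesterol genes (-0.17), the 5 PDGF genes (0.22), the 7 mural genes (0.63), the 4 mesothelial genes (0.61), the 12 endothelial genes (0.72), the 3 neutrophil genes (2.06), the 3 B cell genes (-0.27) and the 4 cholangiocyte genes (0.32). Hepatocyte RNA had 4 of 18 genes lower, Cyp2e1, Apob, Vtn and Gc, of which Cyp2e1 kept its call in every single omission while Vtn lost it in 10 of 12 and Apob and Gc in 6 each. With the Y-linked covariate 1 of the 18 was lower, and under stricter exclusion 1 was lower and 1 higher. Of all genes tested in the main fit of the Reln/Lrat-positive cells 1.07% were lower and 1.43% higher. The hepatocyte sum was 2692 to 5230.3 CPM in controls and 495 to 2624 CPM in anemic mice without overlap. Of the 12 largest falls without overlap, Cyp2e1, Car3, Slco1b2, Hrg, Pon1, Akr1c20 and Adh1 are hepatocyte genes, and the part of hepatocyte RNA in them was not tested. Red cell RNA had 1 of 9 genes higher (Alas2 at 2.96 ± 0.63 (adjusted p = 0.0368), a call lost in 9 of the 12 single omissions, with adjusted p up to 0.0862) and sums of 694 to 9263 CPM and 5262 to 42298 CPM.

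In the Reln/Lrat-negative cells, whose 1635 cells outnumbered the positive ones, 9 of 11576 genes tested differed (0.0777%), all of them higher, and 921 had an unadjusted p under 0.05. Among them were Gm10076, Gsdme, Gfpt2, Tango6, Igf2bp2, Slc43a3 and Apoc3. Gfpt2, an enzyme that feeds glucose into hexosamines, read 119, 149 and 197 CPM in controls and 207, 272 and 478 CPM in anemic mice (1.03 ± 0.18 (adjusted p = 0.0310)), and Igf2bp2, an RNA-binding protein of growing tissue, read 44.3, 61.6 and 68.0 CPM and 77.9, 94.0 and 136 CPM (0.79 ± 0.15 (adjusted p = 0.0310)). Neither pair overlapped, as for 62 of the 11576 genes (0.536%). Apoc3 is a hepatocyte gene, and the part of hepatocyte RNA in its rise was not tested. The count went from 1 to 18 when single mice were left out. No hypoxia gene passed there, with a median of 0.20. A call in one set of cells and not in the other does not show a difference between them, so the difference itself was fitted.

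The response to PIA differed between Reln/Lrat-positive and Reln/Lrat-negative cells for 26 of 10826 genes (0.24%), in a fit with a term for each mouse. Reln and Lrat UMIs decide which set a cell is in, and the positive share was lower in the anemic mice. A gene that goes with Reln and Lrat can thus differ through membership of the sets, and the part of this was not tested. These genes were found by that fit and, apart from those on the lists, are named after their values were seen. For Tcf21 the log2 change was -1.14 ± 0.15 in positive and -0.01 ± 0.12 in negative cells, a difference of -1.16 ± 0.16 (adjusted p = 5.98e-04), and in the negative cells it read 177, 222 and 287 CPM in controls and 194, 219 and 279 CPM in anemic mice. Igfbp3 (-1.43 ± 0.21 (adjusted p = 0.00192)) and Rarb (-1.32 ± 0.24 (adjusted p = 0.00891)) differed in the same direction. So did the fibroblast growth factor receptor Fgfr2 (-1.06 ± 0.21 (adjusted p = 0.0345)), the axon guidance receptor Robo1 (-0.96 ± 0.21 (adjusted p = 0.0494)) and Cd274, the PD-L1 checkpoint ligand (-2.59 ± 0.54 (adjusted p = 0.0210)), which did not pass in either set of cells alone. The difference was positive for Vcan (1.17 ± 0.18 (adjusted p = 0.00129)), with 197, 225 and 264 CPM in control and 212, 227 and 256 CPM in anemic negative cells. It was positive as well for the glycolytic enzymes Aldoa (0.69 ± 0.15 (adjusted p = 0.0267)) and Tpi1 (0.93 ± 0.16 (adjusted p = 0.00392)), for Podn (1.71 ± 0.29 (adjusted p = 0.00392)), for Zbtb16 (1.32 ± 0.29 (adjusted p = 0.0435)) and for Rgs16, a brake on G-protein signals (2.82 ± 0.52 (adjusted p = 0.0135)).

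**Figure D5:**
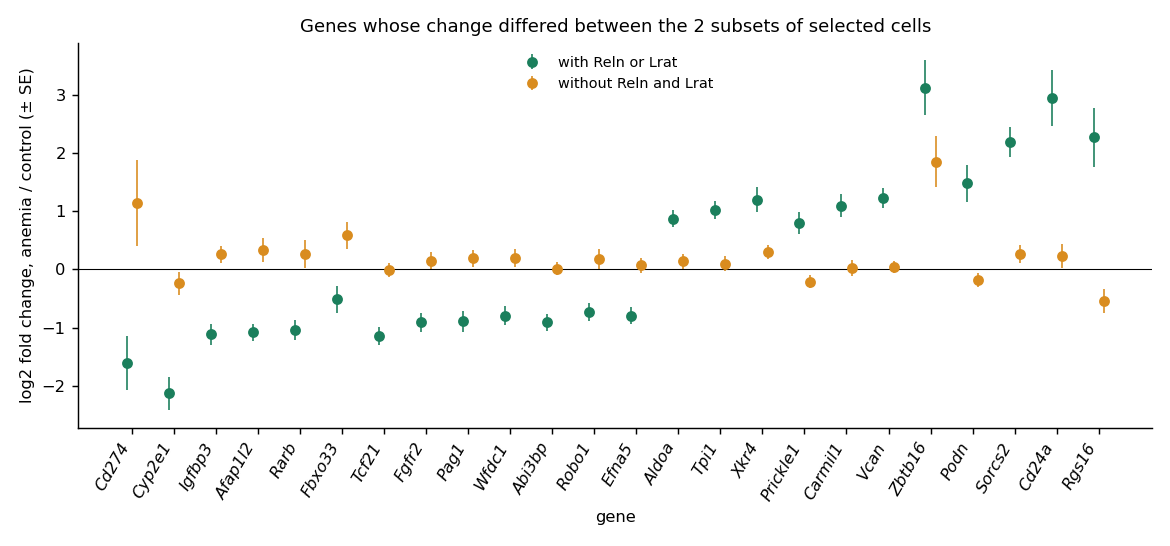
Log2 fold change, anemic over control, with its standard error (vertical axis) in Reln/Lrat-positive and Reln/Lrat-negative cells for 24 of the 26 genes whose change differed between them (horizontal axis). Angptl1, which was not tested in the positive cells, and 1 further gene are left out. Tcf21 sits at -1.14 and -0.01, and Vcan at 1.23 and 0.04.

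Sinusoidal endothelial cells of the same livers, which face the same blood, served as a reference. Among hypoxia genes 31 of 37 were higher there (6.69% of all genes were), and the response differed from that of the Reln/Lrat-positive cells for 3 of 36 of them, lower in the Reln/Lrat-positive cells for each, beside 371 of 13850 genes in all (2.68%, with 1.64% lower). For all selected cells against endothelial cells 13 of 37 hypoxia genes differed, each lower in the selected cells, beside 6.63% of all genes in either direction. Adm rose by 1.67 ± 0.14 in endothelial cells (adjusted p = 9.44e-07), and the difference from the Reln/Lrat-positive cells was -2.39 ± 0.24 (adjusted p = 9.85e-08). For Angptl4, a lipase inhibitor, it was -2.66 ± 0.30 (adjusted p = 8.94e-08), and for the glycolytic enzyme Pfkp -1.11 ± 0.25 (adjusted p = 0.00699). For Pgk1 (-0.05 ± 0.20 (adjusted p = 0.947)) and Eno1 (0.09 ± 0.15 (adjusted p = 0.835)) no difference was called. Igfbp3 moved in opposite directions, 2.77 ± 0.67 in endothelial cells (adjusted p = 0.0190) against -1.12 ± 0.18, a difference of -3.55 ± 0.62 (adjusted p = 0.0125). Slc40a1 did so too, 0.30 ± 0.09 in endothelial cells (adjusted p = 0.0341), a difference of -1.14 ± 0.15 (adjusted p = 3.20e-06), as did Zeb2 (-1.01 ± 0.18 (adjusted p = 0.00145)). The change was higher in the Reln/Lrat-positive cells for Vcan (1.27 ± 0.33 (adjusted p = 0.0207)), Col12a1 (1.93 ± 0.38 (adjusted p = 0.00136)), Lama4 (1.60 ± 0.37 (adjusted p = 0.0411)) and Zbtb16 (2.26 ± 0.59 (adjusted p = 0.0320)).

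Against C1q macrophages 57 of 13110 genes differed (0.435%). In macrophages themselves 289 of 13745 genes were called (2.1%). Of the hypoxia genes 18 of 36 were higher there, with a median log2 fold change of 0.69. The response differed from that of the Reln/Lrat-positive cells for 1 of 37 of them, lower in the positive cells. Vegfa rose by 3.07 ± 0.22 in macrophages (adjusted p = 3.60e-06), and the difference of the Reln/Lrat-positive cells from them was -2.40 ± 0.30 (adjusted p = 2.14e-04). The change was higher in the Reln/Lrat-positive cells for Zbtb16 (3.23 ± 0.43 (adjusted p = 2.14e-04)) and Hsd11b1 (2.02 ± 0.34 (adjusted p = 0.00233)), which in macrophages stood at -0.09 ± 0.33 and -0.35 ± 0.23. Over all selected cells, 978 of 14754 genes (6.63%) differed from endothelial cells and 183 of 14230 (1.29%) from macrophages.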

How the data were processed

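Whole-liver single-cell suspensions from 12 pups were run on a 10x Genomics droplet platform, 1 library per pup. The kit is given as 3' version 2 in one label and as a later version elsewhere. Per the file headers, the authors made the deposited UMI count matrices with Cell Ranger 7.0.0, and the submitters' processing notes name mm10 and Seurat. No doublet caller was run here: doublets were removed only by the exclusion genes of the rule. Raw counts were summed per mouse over the selected cells, mitochondrial and ribosomal protein genes and the 18 genes of the rule were set aside, and every gene averaging 5 UMIs a mouse or more was tested with edgeR 4.0.16 in R 4.3.3 (quasi-likelihood, robust, TMM), with Benjamini-Hochberg adjustment over all genes tested and calls at 0.05. CPM of tested genes refer to the UMIs of tested genes after TMM scaling. CPM of the rule genes and summed levels of a list refer to all UMIs without that scaling. Differences between cell types were fitted as an interaction with a term for each mouse. Endothelial cells (14900) had at least 4 UMIs of Stab2, Clec4g and Oit3, macrophages (14431) at least 6 UMIs of the C1q genes. Shares were compared by exact permutation over every split of the 12 mice.

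The rule, the 28 gene lists and the tests were chosen with earlier results of these data known. The split by Reln and Lrat (at least 2 UMIs), its fits and the fits without anemic mice 2 and 3 were added after the data had been examined. The genes named were taken from the called list genes and, on either side, from the 12 called genes that changed most of those reaching a mean of 10 CPM whose 6 control and 6 anemic values stood apart. A few genes are not reported here, and the 2 of them that stood on lists were left out of the list counts and sums. Genes without a call are examples of their list, chosen in part after their values were seen. On simulated counts for the 12840 genes of the comparison over all selected cells, 66 of 100 genes changed by a log2 of 1 and 95 of 100 changed by a log2 of 2 were called, with 5 false calls. Alternatives were DESeq2 1.42.0, limma 3.58.1 (voom with quality weights), other filters, a replicate block, a Y-linked covariate and leaving out each mouse. Pups are separate animals, so p-values measure the spread between animals. Promoter windows are from RefSeq. Intervals and shares cover these libraries only, and the files hold no column outside these samples.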

Additional observations from a re-analysis of the deposited data

Results flagged for a closer look

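Of 106 groups of 6 mice tested with Dixon's criterion, 9 held a mouse far from the others, where chance flags about 1 in 20. Anemic mouse 3, with 79 selected cells, had mesothelial genes in 26.3% of its thinned cells, beside 11.7 to 16.4% in the other anemic mice. The same mouse had 417 CPM of Adamtsl2 and 121 CPM of the long non-coding gene Gm12743 in its Reln/Lrat-positive cells, beside 80.5 to 195 CPM and 14.4 to 41.2 CPM in the others. Anemic mouse 5 stood apart for globin RNA over all selected cells, with 4993 CPM of Hba-a1, 3701 CPM of Hba-a2 and 13031 CPM of Hbb-bs, beside highest values of 3640, 2330 and 8848 CPM in the other anemic mice. Control 5 had 178 CPM of Tafa1 over all selected cells (the other controls 66.2 to 103), and 43.2 CPM of Car3 and 29.4 CPM of Hrg in Reln/Lrat-positive cells (the others 18 to 26.6 and 15.1 to 18). Control 5 and anemic mouse 5 were also the mice whose omission lowered the number of calls in Reln/Lrat-positive cells most, to 144 and 123.

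The response to PIA differed between cell types for 978 genes (selected cells against endothelial cells), for 183 genes (selected cells against macrophages) and for 26 genes (Reln/Lrat-positive against Reln/Lrat-negative cells), each by a test of the difference itself.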

How the results depend on the processing

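Over all selected cells, where the main count was 592, DESeq2 called 682 genes, limma voom 780, unscaled library sizes 581 (202 higher, 379 lower), the Y-linked covariate 350, Reln/Lrat-positive cells alone 234 (134 higher, 100 lower) and Reln/Lrat-negative cells alone 9, and leaving out single mice gave 379 to 734, the lowest without control 4 (379) and control 5 (380). Against endothelial cells (978) the count was 371 with Reln/Lrat-positive and 339 with Reln/Lrat-negative cells (121 higher, 218 lower) and 620 to 956 without single mice, lowest without control 4 (620) and control 6 (630). Against macrophages (183, with 107 higher and 76 lower) it was 57 and 38 for the 2 sets, 184 with 86 higher and 98 lower on unscaled library sizes, and 55 to 250 without single mice, with 79, 55, 80 and 68 without control 1, 4, 5 and 6 and 113 and 93 without anemic mice 5 and 6. In Reln/Lrat-positive cells (234) the Y-linked covariate gave 148 and single omissions 123 to 275. In Reln/Lrat-negative cells (9) the replicate block gave 37 and single omissions 1 to 18. The cause of these shifts was not tested.

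The numbers of the mice were not used to pair them in the main fits. The correlation of same-numbered mice ran from -0.12 to 0.19. With the number as a replicate block 760 genes were called over all selected cells (592 without it) and 249 in Reln/Lrat-positive cells (234 without it). The share of selected cells kept its difference of -0.237 (exact p = 0.688). Whether same-numbered mice share anything beyond the number was not tested.

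The difference in the share of selected cells turned to 0.0935 without hemoglobin-rich barcodes, 6.21 against selected plus endothelial cells, 0.282 without anemic mice 2 and 3 and 0.257 for Reln/Lrat-negative cells. It was -0.515 for Reln/Lrat-positive cells, -1.33 without the exclusions and -0.756 after thinning to 1500 UMIs. With at least 6 marker UMIs and 3 markers detected it was -0.440, and without single mice it ran from -0.468 to -0.0129. The mural difference turned to 0.749 without thinning and 4.14 with at least 3 genes and ran from -1.86 to 1.13 without single mice. The proliferation difference turned to 3.97 without thinning, and the mesothelial one ran from 3.51 to 7.52.

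Of 102 named genes over all selected cells 66 kept their call without each single mouse and none reversed. In Reln/Lrat-negative cells alone 13 had the opposite sign, none past the threshold there: Tafa1 1.2, Ptprt 0.57, Bmp5 0.45, Rspo3 0.56, Ntn1 0.047, Prelp 0.077, Steap4 0.93, Colec10 0.51, Igfbp3 0.26, Rarb 0.26, Adm 0.21, Masp1 0.17 and Ogn -0.011. Of 73 named genes in Reln/Lrat-positive cells 43 kept their call without each single mouse and none reversed. With the Y-linked covariate 25 of the 73 missed it, as did 17 of the 65 tested under stricter exclusion. The call of Alas2 over all selected cells was lost under stricter exclusion (adjusted p = 0.0566). Depth limits the rarest sets: anemic mouse 3 gave 11 Reln/Lrat-positive cells and 62924 UMIs.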
